A study of Mus musculus with 8 samples.

Results

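The genes described here are the 53 named DNA replication and G1/S genes, whose products prepare and carry out the copying of the genome and control the entry of a cell into S phase. They were taken by name from the 34797 gene names on the arrays, and all 53 were found, through 71 of the 55681 probes. Thyroid RNA of 8 female Balb/c mice, 8 weeks of age, was hybridised to 8 single-colour Agilent mouse arrays. In the exposed group (Tc), 4 mice had received 99mTcO4-, a radioactive anion that the thyroid takes up as it does iodide. Their thyroids had an absorbed dose of 30 Gy at 24 h, and their RNA was taken 24 h after administration. The control group (Ct) is formed by 4 mice not given the radionuclide, which the study calls untreated in its results and saline-injected in a figure legend. Whole glands were used, so the RNA is that of thyrocytes together with every other cell type left in the dissected tissue, and in such RNA fewer cells of a type and less RNA per cell cannot be told apart. A single slide, scanned once, carried all the arrays, and since exposed samples took its first positions, position and exposure cannot be told apart. The controls are named Ct1 to Ct4, and the exposed samples S539, S588, S589 and S590.

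Before a cell divides, the origin recognition complex marks the sites where replication will start, and Cdc6 and Cdt1 load the ring-shaped Mcm2 to Mcm7 helicase on them, a step called licensing. Geminin, the product of Gmnn, blocks Cdt1 once S phase has begun. Cdc45 and the GINS complex then switch the helicase on, DNA polymerases copy the strands around the sliding clamp PCNA, and ribonucleotide reductase, thymidylate synthase and thymidine kinase supply the precursors. Cyclin D and cyclin E kinases open the way to S phase by phosphorylating the retinoblastoma protein and its relatives, which releases E2F factors onto the promoters of many of these genes. In an adult thyroid few thyrocytes divide, whereas the thymus, which lies close to the thyroid in the mouse, is rich in dividing thymocytes.

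The promoters of several members carry the letters of the E2F binding motif, a sequence feature that the choice of the genes did not use. RefSeq promoter windows of assembly GRCm38.p6 (250 bases before the transcription start and 50 after it) were searched on both strands for TTTCCCGC, TTTGGCGC, TTTCGCGC and TTTGCCGC, of which the forms read on opposite strands can overlap. The table held 42 of the 53 members, and 16 of these (38.1%) had at least 1 match, against 2.605% of all 27025 genes in the table. The other 11 members had no entry (Rfc2, Rb1, Prim2, Gmnn, Ccnd2, Mcm4, Ccne2, Gins1, Gins2, Pole and Ccnd1). Matches upstream of the start were found for Mcm6, Mcm5, Cdc6, E2f3, Pola1, Rbl1, Orc1, Rfc3, Mcm7, Gins3, E2f7 and Cdk2, and only downstream of it for Mcm3, E2f2, Pold1 and Cdt1. The 160 bases that end just before the start are shown for 5 of them. Cdc6 was the only member past the threshold, and E2f3 encodes one of the factors themselves. Mcm6 and Mcm5 are helicase subunits that differed between the control arrays. Pola1 was chosen for its product alone, the catalytic subunit of the polymerase that extends each primer. Capitals mark the motif letters, each sequence runs 5′ to 3′ towards the gene, and the positions are chr11:98907991-98908150 (plus strand) for Cdc6, chr1:128359706-128359865 (minus) for Mcm6, chr8:75109349-75109508 (plus) for Mcm5, chr13:29986064-29986223 (minus) for E2f3 and chrX:93632156-93632315 (minus) for Pola1.
Cdc6: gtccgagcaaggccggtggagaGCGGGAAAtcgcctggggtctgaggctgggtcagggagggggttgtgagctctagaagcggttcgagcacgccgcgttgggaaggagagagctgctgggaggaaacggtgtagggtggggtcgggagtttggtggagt
Mcm6: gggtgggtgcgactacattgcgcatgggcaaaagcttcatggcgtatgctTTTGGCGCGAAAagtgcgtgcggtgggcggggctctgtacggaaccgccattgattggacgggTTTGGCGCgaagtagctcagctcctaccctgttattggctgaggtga
Mcm5: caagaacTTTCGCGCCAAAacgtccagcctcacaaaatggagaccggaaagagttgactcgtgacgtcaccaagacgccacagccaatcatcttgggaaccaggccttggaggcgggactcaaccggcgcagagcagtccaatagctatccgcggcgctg
E2f3: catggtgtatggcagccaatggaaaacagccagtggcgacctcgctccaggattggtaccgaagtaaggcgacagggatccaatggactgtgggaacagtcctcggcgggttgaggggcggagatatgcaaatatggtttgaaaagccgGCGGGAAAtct
Pola1: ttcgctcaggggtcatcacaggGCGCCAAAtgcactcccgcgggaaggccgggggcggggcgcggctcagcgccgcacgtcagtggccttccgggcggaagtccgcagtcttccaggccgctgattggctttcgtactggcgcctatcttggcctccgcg
In Mcm6 and in Mcm5 a match on each strand shares the same stretch of bases, and Mcm6 holds a further match nearer to the start. Among members with an entry, 9 of the 21 that were higher on controls Ct1 and Ct2, described below, had a match, and 7 of the other 21. A match of letters does not show that a factor is bound.

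Which of these genes differed between exposed and control thyroids was asked with limma over all 55681 probes. A single probe of the 71, the brightest one of Cdc6, passed the threshold of 0.05 on the adjusted p, and it was lower in exposed thyroids. Over all probes, 0.194% were called lower and 0.587% higher. Counted by their brightest probe, 43 of the 53 genes had a log2 fold change below 0 and 10 above 0, whereas 48.9% of all gene names were below 0, and the median log2 fold change was −0.41 for the members and 0.01 for all gene names. Where the arrays were instead scaled to the 75th percentile, the median of all probes moved by 0.16, and 40 members were below 0. In 11 of the 53 genes all 4 exposed arrays lay below all 4 controls, against a background of 4.75% of gene names, and in 3 genes they lay above, against 5.29%. The 11 genes were Cdc6, Gmnn, Mcm2, Mcm6, Mcm10, Gins1, Pole, Rfc1, Rpa3, Tk1 and E2f3. The 3 genes above were Rrm1, Prim1 and Rb1. At an unadjusted p under 0.05, 21 of the 71 probes were lower (background 5.87%) and 3 were higher (background 6.29%).

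**Figure D1:**
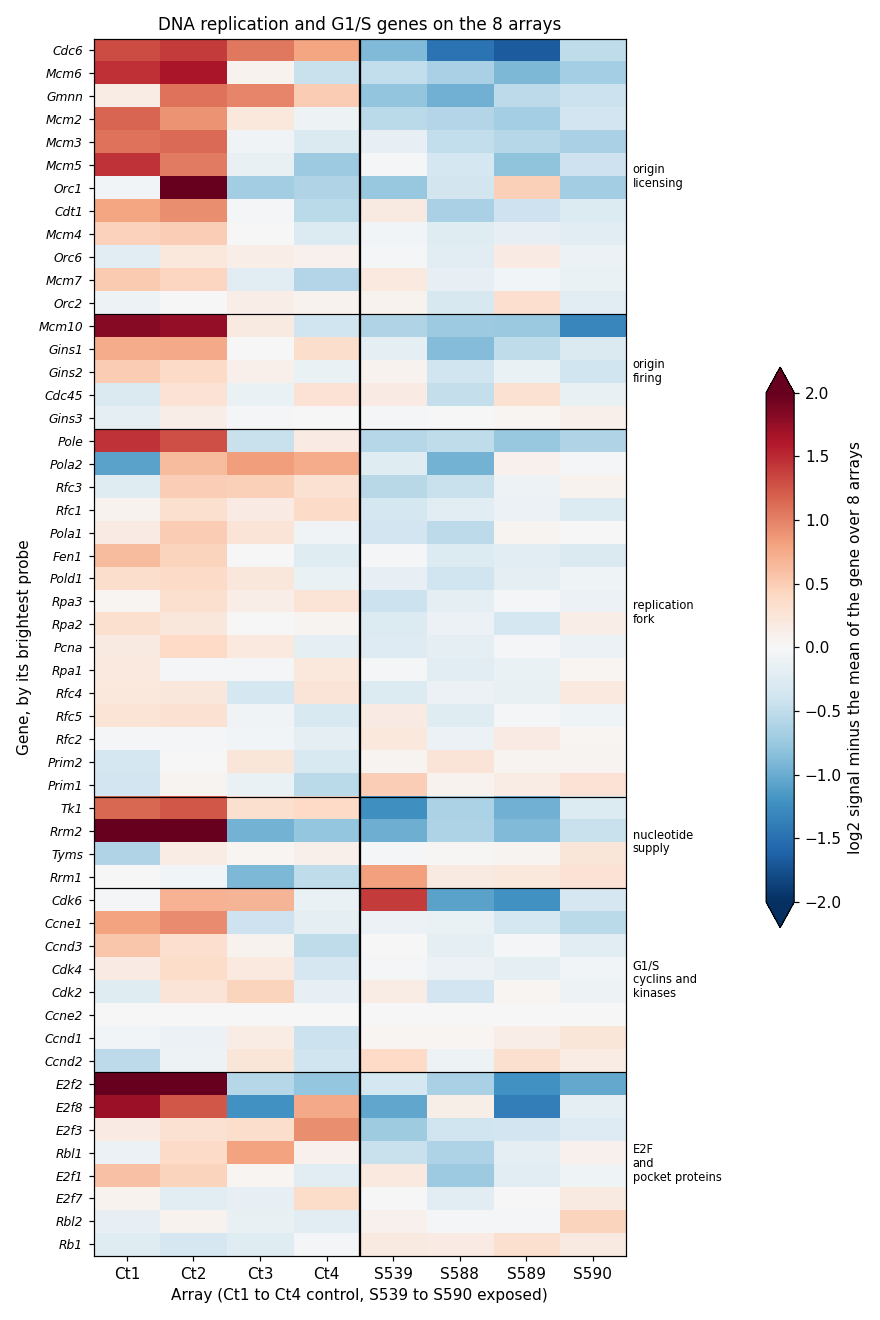
The log2 signal of each of the 53 genes (rows, grouped by role) on each of the 8 arrays (columns) is shown as its difference from the gene's own mean, in colour limited to 2 either way. Ct1 and Ct2 are the darkest red columns, most of all in the licensing genes, Mcm10, Pole, Rrm2 and E2f2, while Cdc6, Gmnn, Tk1 and E2f3 are red in all 4 controls.

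The control arrays were not alike. On Ct1 and Ct2, 14 of 16 thymocyte markers were above both Ct3 and Ct4. The summed signal of the 16 markers was 97270 on Ct1 and 50741 on Ct2, against 9750 on Ct3, 10779 on Ct4 and 9347 to 14268 on the exposed arrays. Rag1, the recombinase of developing lymphocytes, had a log2 signal of 11.96 on Ct1 and 10.64 on Ct2, was not well above background on Ct3 and Ct4 (2.89 and 2.92), and reached 5.45 on S539 with 2.80 to 2.86 on the other exposed arrays. Thyroglobulin, the main product of thyrocytes, lay between 18.70 and 19.07 on all 8 arrays. Of 10 thyrocyte markers, all well above background on every array, 8 had a log2 fold change below 0 (median −0.47). Only 1, the iodide transporter gene Slc5a5, was called, at −3.53, and the others ran from −1.05 to 0.29. The mean centred log2 signal of the list, in which Slc5a5 weighs heavily, was −0.11 to 0.84 in controls and −0.42 to −0.29 in exposed thyroids. Among 10 mitosis markers outside the replication list, 8 were also above on Ct1 and Ct2, with summed signals of 15309 and 12604 against 1805 and 2383 on Ct3 and Ct4 and 1416 to 2293 on the exposed arrays. Skeletal muscle, another neighbour of the gland, differed between arrays without following Ct1 and Ct2, with a mean centred log2 signal of its 8 markers from −0.22 to 1.10 in controls and from −1.43 to 0.63 in exposed thyroids. Of 6 fibroblast markers 6 were below 0, and of 8 macrophage markers 7 (48.9% of all gene names). The same was so for 4 of 6 B cell, 2 of 5 endothelial and 2 of 6 adipocyte markers. For parathyroid it was 1 of 3, and for C cells 0 of 4. What part thymus or muscle tissue, the lower thyrocyte score or other cell types had in the values of the members was not tested.

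Among the members, 26 of 53 were higher on both Ct1 and Ct2 than on both Ct3 and Ct4, against a background of 16.4% of gene names, and 4 were lower on both, against 19.9%. The count was 29 with scaling to the 75th percentile (background 20.9%) and 26 both with normexp correction and in the deposited values (17.7% and 17.9%). It took in 9 of the 12 licensing genes with all 6 of Mcm2 to Mcm7, 3 of the 5 firing genes, 6 of the 16 fork genes, 3 of the 4 nucleotide genes, 2 of the 8 cyclins and kinases, and 3 of the 8 E2F and pocket protein genes. Of these 26 genes, 24 had a log2 fold change below 0 in the comparison of exposed with control thyroids, and 7 were among the 11 with the groups apart. High values on Ct1 and Ct2 raise the control mean, so a fold change below 0 is partly set by how these genes were picked. The same shares over all gene names picked in this way were not counted. The remaining 4 of the 11, Gmnn, E2f3, Rfc1 and Rpa3, were not higher on Ct1 and Ct2. The mean centred log2 signal of the 53 genes was 0.39 on Ct1 and 0.58 on Ct2, 0.03 on Ct3 and −0.07 on Ct4, and −0.15, −0.35, −0.25 and −0.17 on S539, S588, S589 and S590. On this scale Ct4 was thus nearer to every exposed array than to Ct1 or Ct2. Ct3 was so for every exposed array but S588, which lay further from it than Ct1 did.

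**Figure D2:**
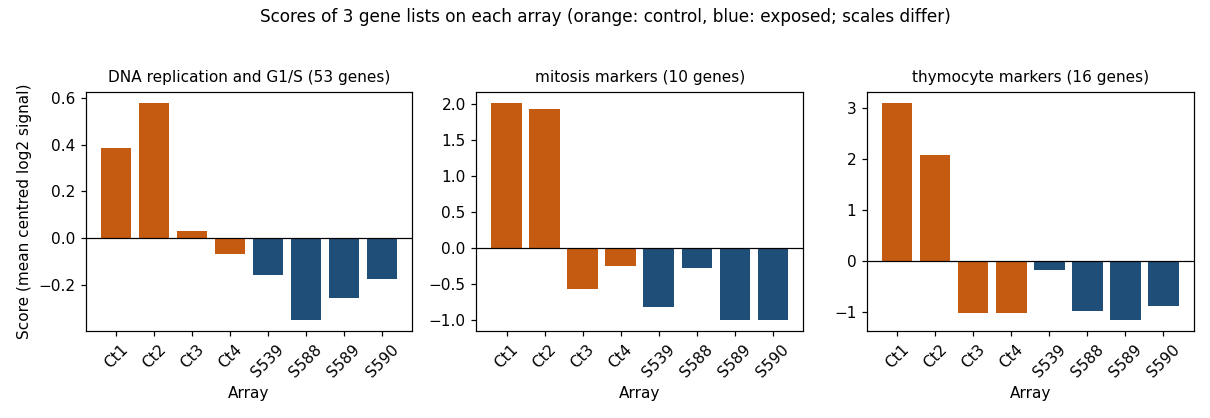
Each bar is the score of a gene list on 1 array (log2 signal less the gene's own mean over the 8 arrays, averaged over the list), for the 53 members, 10 mitosis markers and 16 thymocyte markers, with a scale of its own in each panel. Ct1 and Ct2 stand highest in all 3 panels, and for the members Ct3 at 0.03 and Ct4 at −0.07 lie above the 4 exposed arrays, whose highest score is −0.15.

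Set against Ct3 and Ct4 alone, the members' median log2 fold change was −0.13, with 36 genes below 0, and no member probe was called, where 0.16% of all probes were. At an unadjusted p under 0.05, 10 of the 71 member probes were lower (background 7.24%) and 2 were higher (background 6.09%). The exposed arrays lay below both controls in 13 genes (background 14.5%) and above both in 5 (background 13.4%). These backgrounds are higher than those above because only 2 controls had to be passed. Genes apart from all controls are necessarily counted here again. The log2 fold change was below −1 in 10 genes with all controls and in 5 without Ct1 and Ct2. The 5 were Cdc6, Gmnn, Tk1, E2f3 and Pola2, of which E2f3 (−0.87) and Pola2 (−0.56) were not among the 10. The same shares over all gene names were not counted. With the thymocyte score as a covariate the median was −0.16 and again no member was called.

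**Figure D3:**
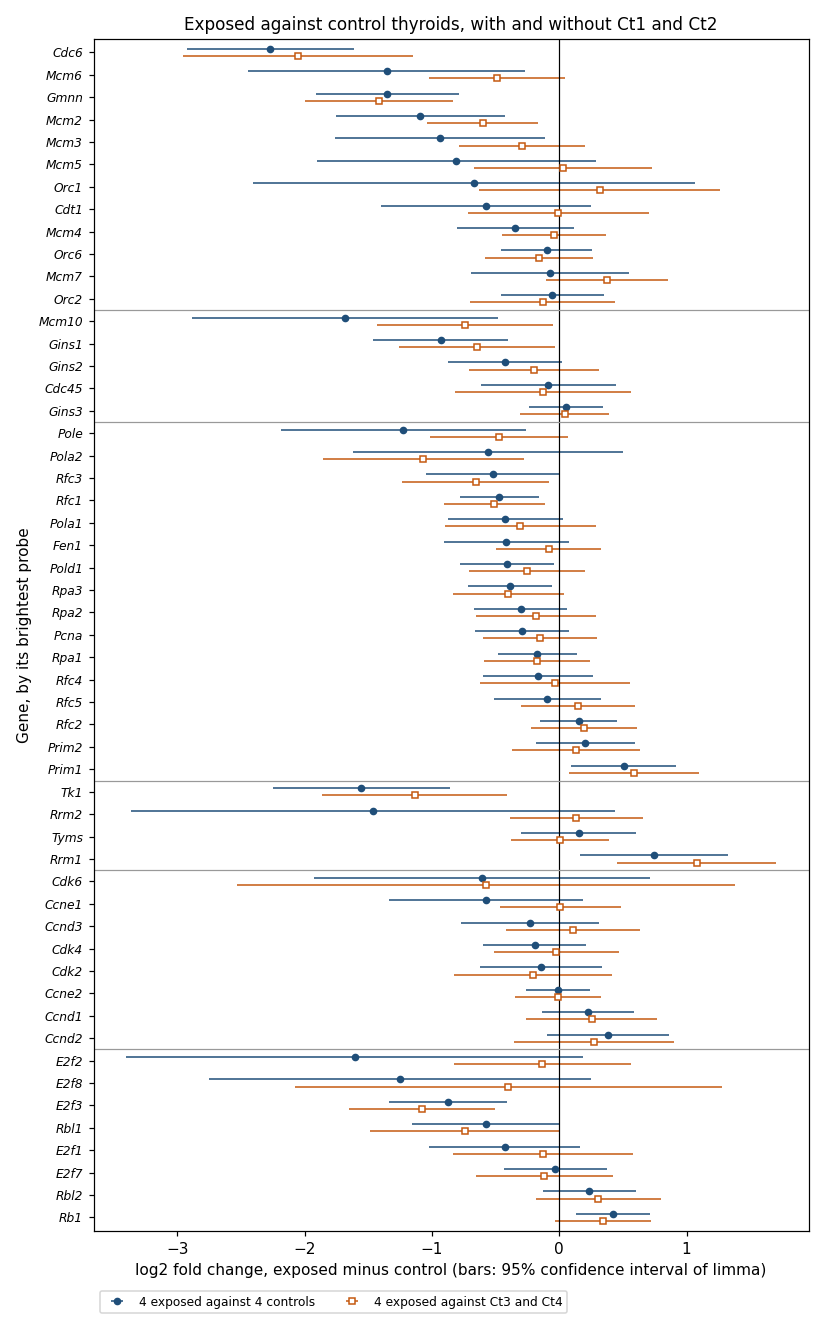
Points are limma log2 fold changes (exposed minus control) of the 53 genes with 95% confidence intervals, filled for all 4 controls and open for Ct3 and Ct4 alone. The open squares of Rrm2, E2f2, Mcm5 and Mcm10 lie nearer to 0 than the filled points. Those of Cdc6, Gmnn, Tk1, E2f3, Pola2 and Rrm1 lie beyond 1 in size.

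Among the licensing genes, Cdc6 had the largest difference. Cdc6, an ATPase that recruits the helicase to the origin, was read on chromosome 11 of the mm9 build from 98782986 to 98783045, in a probe for NM_011799. Its log2 signal was 6.56 on Ct1, 6.66 on Ct2, 6.32 on Ct3 and 6.05 on Ct4, and 4.38 on S539, 3.78 on S588, 3.61 on S589 and 4.75 on S590. All controls were high and all exposed arrays low, with a gap wider than the spread inside either group. On the log2 scale Cdc6 fell by 2.27 with a standard error of 0.28 (limma's adjusted p = 0.0174). The probe was well above background on all 4 control arrays and on none of the exposed arrays. The lowest signal well above background of any probe was 4.68 on Ct1, 5.33 on Ct2, 5.30 on Ct3 and 5.92 on Ct4. Cdc6 on Ct4 thus lay close to this limit. The measured means of Cdc6 were 6.40 and 4.13. Where the probe lay below an exposed array's lowest signal well above background, that lowest signal was used instead. The signal was then 3.104-fold lower after exposure, which is not a lower bound, since other corrections gave smaller differences. The size depended on the background correction, with a log2 fold change of −0.93 after normexp correction (limma's adjusted p = 0.00502) and −1.04 in the deposited values (0.00926). Unlike the Mcm genes, Cdc6 had controls close to each other, and against Ct3 and Ct4 alone the log2 fold change was −2.05 (limma's adjusted p = 0.146). The call also depended on single arrays. Limma's adjusted p was 0.0677 without Ct2, 0.0535 without Ct3, 0.0545 without S539, 0.0543 without S588 and 0.0589 without S589. The dimmer probe of Cdc6, from 98785169 to 98785228, had 5.38, 6.24, 3.09 and 3.35 on Ct1 to Ct4 and 3.61, 2.99, 4.01 and 3.99 on S539, S588, S589 and S590. It was high on Ct1 and Ct2 alone and was not well above background on any exposed array, with a log2 fold change of −0.87 and limma's adjusted p = 0.645. The probes of Cdc6 thus had the same sign and differed in call.

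Gmnn, which encodes the licensing inhibitor geminin, had a log2 signal of 9.47 on Ct1, 10.41 on Ct2, 10.30 on Ct3 and 9.83 on Ct4, against 8.54 on S539, 8.37 on S588, 8.80 on S589 and 8.89 on S590. The groups were apart, with Ct1 the lowest control and Ct2 the highest. At −1.35 on the log2 scale (standard error 0.24), the difference stayed short of the threshold (limma's adjusted p = 0.0610). It passed with scaling to the 75th percentile (0.0482), normexp correction (0.0188), the deposited values (0.0133), without dim probes (0.0264) and without Ct1 (0.0365). Against Ct3 and Ct4 the value was −1.41 (limma's adjusted p = 0.129). A further probe under the name Gmnn, for AK131677, is placed by the array annotation on the opposite strand of chromosome 13, and its log2 fold change was 0.27.

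Each of the helicase genes was higher on Ct1 and Ct2, so leaving these arrays out had to raise its log2 fold change. Mcm6 had a log2 signal of 12.11 on Ct1 and 12.27 on Ct2, then 10.71 on Ct3 and 10.20 on Ct4. It had 10.15, 10.003, 9.75 and 9.97 on the exposed arrays in the order S539, S588, S589 and S590. The lowest control and the highest exposed array were almost level. Its log2 fold change was −1.36 with all controls and −0.49 against Ct3 and Ct4. Mcm2 had 10.76, 10.50, 9.81 and 9.49 on Ct1 to Ct4 and 9.05, 9.02, 8.92 and 9.22 on the exposed arrays, which left all controls above, with −1.09 and −0.60 in the same comparisons. Mcm3, whose dimmer probe had its groups apart at −1.01, and Mcm5 gave −0.94 and −0.81 with all controls, and −0.29 and 0.03 against Ct3 and Ct4. Mcm4 gave −0.35 and −0.04. Mcm7, the remaining subunit, gave −0.07 and 0.37. In it all exposed arrays (11.73 to 12.09) lay above Ct3 at 11.66 and Ct4 at 11.30 but below Ct1 and Ct2 at 12.41 and 12.33. Limma's adjusted p for the 6 subunits was 0.177 to 0.935.

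Of the other licensing genes, Cdt1, the loader that geminin blocks, had a log2 fold change of −0.58 with all controls and −0.01 against Ct3 and Ct4. The origin recognition subunits Orc2 and Orc6 were at −0.06 and −0.10, and Orc1 at −0.67 was well above background on a single array, Ct2. All 12 licensing genes were below 0 in the main comparison, although Orc2 was above 0 (0.06) with scaling to the 75th percentile and Orc6 (0.01) with normexp correction and in the deposited values, and their median of −0.74 became −0.14 without Ct1 and Ct2.

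In origin firing, Mcm10, which helps to load the polymerase onto the activated helicase, had the lowest fold change. Its log2 signal was 8.97 on Ct1, 8.92 on Ct2, 7.34 on Ct3 and 6.76 on Ct4, and 6.55, 6.43, 6.41 and 5.85 on S539, S588, S589 and S590. Every exposed array was below every control, but the step within the controls was larger than that between Ct4 and the exposed arrays. The log2 fold change was −1.69 (limma's adjusted p = 0.252, standard error 0.52), and −0.74 without Ct1 and Ct2. Gins1, a subunit of the GINS complex, had 8.89, 8.92, 8.17 and 8.51 in controls and 7.96, 7.29, 7.64 and 7.87 in exposed thyroids. Its groups were apart as well, at −0.93 (limma's adjusted p = 0.155) and −0.65 without Ct1 and Ct2. Gins2 gave −0.43 and Cdc45 −0.08, the latter with a change of sign (0.21) under scaling to the 75th percentile. Gins3 was nearly level, from 13.32 to 13.65 in controls and from 13.48 to 13.61 in exposed thyroids, with the highest fold change of the role at 0.05.

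The 16 fork genes, which encode the polymerases, primase, clamp, clamp loader, single-strand binding proteins and the flap nuclease Fen1, had smaller differences. Pole, the catalytic subunit of the leading strand polymerase, was the lowest at −1.22 (limma's adjusted p = 0.299, standard error 0.42). Its log2 signal was 9.16 on Ct1, 9.02 on Ct2, 7.27 on Ct3 and 7.89 on Ct4, and 7.15, 7.22, 6.96 and 7.12 on S539, S588, S589 and S590. The values of Ct3 were close to those of the exposed arrays, the fold change was −0.47 without Ct1 and Ct2, and 2 dimmer probes of Pole gave 0.11 each, one well above background on 2 controls and 3 exposed arrays and the other on 1 of each. Prim1, the catalytic primase subunit, was the highest at 0.51 (limma's adjusted p = 0.319, standard error 0.18). It had 10.996, 11.44, 11.25 and 10.84 in controls and 11.88, 11.46, 11.54 and 11.67 in exposed thyroids, and S588 exceeded Ct2 by only a small margin. Its partner Prim2 gave 0.20, with −0.51 from a dimmer probe.

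Rfc1, the large subunit of the clamp loader, had 11.89, 12.15, 11.99 and 12.21 in controls and 11.47, 11.62, 11.71 and 11.56 in exposed thyroids. The groups were apart by a small gap, at −0.47 (limma's adjusted p = 0.213) with all controls and −0.51 against Ct3 and Ct4. Groups that are apart with all controls must stay apart against Ct3 and Ct4 alone. Rpa3, the smallest subunit of the single-strand binding protein, was at −0.39 and −0.40, also with the groups apart. Rfc3 was at −0.52 and Pold1 at −0.41. Pcna, the clamp itself, had 12.81, 13.04, 12.84 and 12.44 in controls and 12.37, 12.45, 12.61 and 12.52 in exposed thyroids. Its groups overlapped, at −0.30 (95% confidence interval −0.66 to 0.07). Pola2, an accessory subunit of the priming polymerase, was at −0.56 with all controls and −1.07 against Ct3 and Ct4, since Ct1 at 5.04 lay far below the other controls at 6.74 to 6.95. The remaining fork genes were between −0.42 and 0.15, with Rfc5 giving −0.09 by its brightest probe and 0.11 by the other.

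The 4 nucleotide supply genes went in both directions. Tk1, thymidine kinase 1, had a log2 signal of 10.18 on Ct1, 10.29 on Ct2, 9.36 on Ct3 and 9.43 on Ct4. On S539, S588, S589 and S590 it had 7.80, 8.40, 8.08 and 8.77. Every exposed array was below every control, which fixes the same order for Ct3 and Ct4 alone. The log2 fold change was −1.55 (limma's adjusted p = 0.0779, standard error 0.30), or −1.14 against Ct3 and Ct4 (0.245), and it passed the threshold without dim probes (0.0353), with normexp correction (0.0456) and in the deposited values (0.0456). A dimmer probe, well above background throughout, gave −0.71 with all exposed arrays below all controls. The dimmest gave −0.51 but was well above background on 1 control and on no exposed array, and in the deposited values it was at 0.01 with overlap.

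Rrm1 and Rrm2 encode the large and the small subunit of ribonucleotide reductase, and they differed in pattern. Rrm2 had 11.71 on Ct1 and 11.48 on Ct2 but 8.32 on Ct3 and 8.49 on Ct4, with 8.29, 8.66, 8.39 and 8.83 in exposed thyroids. Only the thymocyte-marked controls were high, so the log2 fold change of −1.46 (standard error 0.82) became 0.13 without them. Rrm1 had 11.28, 11.24, 10.39 and 10.78 in controls and 12.11, 11.47, 11.50 and 11.59 in exposed thyroids, all exposed arrays above all controls. Its log2 fold change was 0.74 (limma's adjusted p = 0.298, standard error 0.25) and 1.08 against Ct3 and Ct4 (0.217), the highest of the 53 members in each. Tyms, thymidylate synthase, was at 0.15, and below 0 (−0.005) in the deposited values.

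**Figure D4:**
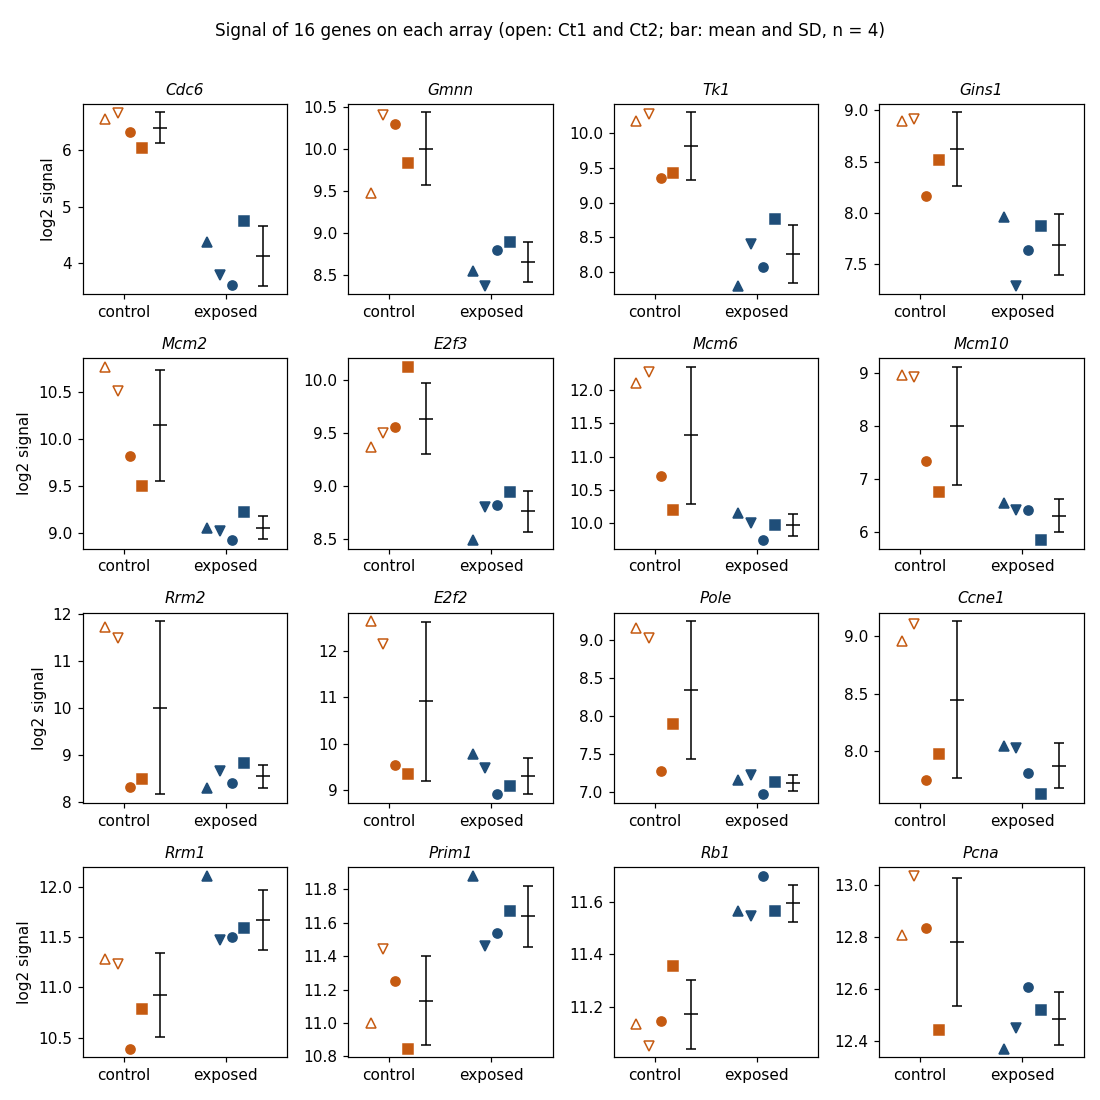
The log2 signal of 16 genes is plotted for each control (orange, with Ct1 and Ct2 open) and exposed array (blue), with the group mean and SD as a bar (n = 4) and a scale of its own in each panel. In Rrm2 and E2f2 only the open symbols are high, in Cdc6, Gmnn, Tk1 and E2f3 all controls lie above the exposed arrays, and in Rrm1, Prim1 and Rb1 all exposed arrays lie above the controls.

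None of the 8 cyclin and kinase genes had its groups apart by its brightest probe. Ccne1, the cyclin E1 gene that acts with Cdk2, had the lowest fold change among those well above background. Its log2 signal was 8.96 and 9.11 on Ct1 and Ct2, 7.75 and 7.98 on Ct3 and Ct4, and 8.04, 8.02, 7.81 and 7.62 in exposed thyroids. Only Ct1 and Ct2 were high, and the difference on the log2 scale was −0.58 (limma's adjusted p = 0.518), or 0.01 without them. A dimmer probe of Ccne1, well above background on 1 control and on no exposed array, gave −1.18 and passed the threshold when Ct4 was left out (limma's adjusted p = 0.0456). Ccnd2, a cyclin D gene, had the highest, with 12.92, 13.33, 13.67 and 13.04 in controls and 13.83, 13.33, 13.75 and 13.58 in exposed thyroids, which overlapped, at 0.39 (limma's adjusted p = 0.495). Cdk6 varied most among exposed thyroids, from 4.74 on S589 to 7.36 on S539, and was at −0.61 (95% confidence interval −1.93 to 0.72), with a change of sign (0.03) under normexp correction. Ccnd1, Ccnd3, Cdk2 and Cdk4 were between −0.23 and 0.23, the dimmest of 3 Cdk4 probes lay apart at −0.45, and Ccne2 was not well above background on any array.

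Among the E2F and pocket protein genes, E2f2 and E2f3, both activating factors, showed different controls behind their values. E2f2 had 12.64 on Ct1 and 12.14 on Ct2, 9.55 on Ct3 and 9.34 on Ct4, and 9.77, 9.47, 8.91 and 9.10 in exposed thyroids. The exposed arrays overlapped Ct3 and Ct4, and the log2 fold change was −1.61 (limma's adjusted p = 0.455, standard error 0.78) with all controls and −0.13 without Ct1 and Ct2. E2f3 had 9.36, 9.49, 9.56 and 10.12 on Ct1 to Ct4 and 8.49, 8.79, 8.82 and 8.94 on the exposed arrays. Here Ct1 and Ct2 were the lower controls and the groups were apart, at −0.87 (limma's adjusted p = 0.129, standard error 0.20) and −1.08 against Ct3 and Ct4 (0.195). E2f3 passed the threshold with normexp correction (0.0484) and in the deposited values (0.0443), and its dimmer probe gave −0.37 with overlap.

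Rb1, the retinoblastoma protein that holds E2F factors in check, was the highest of this role. It had 11.13, 11.05, 11.15 and 11.36 in controls and 11.57, 11.55, 11.70 and 11.57 in exposed thyroids. All exposed arrays were above all controls within a narrow range, at 0.42 (limma's adjusted p = 0.239, standard error 0.13) and 0.34 against Ct3 and Ct4. Its relatives Rbl1 and Rbl2 were at −0.58 and 0.24, and a dimmer Rbl1 probe lay apart at −0.48. E2f8, a repressor of the family, was at −1.25 with wide spread in both groups (6.35 to 9.27 in controls and 6.17 to 7.67 in exposed thyroids) and at −0.40 without Ct1 and Ct2. E2f1 was at −0.43, and at −0.13 without them. E2f7, the other atypical repressor, was at −0.03 and above 0 with scaling to the 75th percentile (0.16), normexp correction (0.14) and in the deposited values (0.10).

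A list of 54 other genes of the same pathways was set beside the members, and 53 of them were on the arrays. None was called in either direction, where 0.207% of gene names were called lower and 0.69% higher. By their brightest probe 41 were below 0 and 12 above 0, with a median of −0.22, which is between those of the members and of all gene names, and at an unadjusted p under 0.05 there were 9 lower and 2 higher genes by limma (backgrounds 6.27% and 6.59%). The exposed arrays lay below all controls in 8 of the 53 genes (background 4.75%) and above them in 2 (background 5.29%). Of the 53 genes, 22 were higher on both Ct1 and Ct2 than on both Ct3 and Ct4 (background 16.4%). Against Ct3 and Ct4 alone, 34 were below 0, with a median of −0.17. Ccna2, the S phase cyclin A2, had the lowest fold change, with 10.36, 9.96, 7.97 and 7.01 in controls and 6.83, 7.46, 6.94 and 6.94 in exposed thyroids, a difference of −1.78 (limma's adjusted p = 0.381) that was −0.45 without Ct1 and Ct2. The highest was Dctd, a deaminase of the thymidylate route, at 0.80 (limma's adjusted p = 0.701), which was not well above background in controls and owed its value to S590 at 7.96. The 8 lower genes were Dck, Dut, Chaf1a, Recql4, Pold2, Tipin, Tfdp1 and Pole3, and the 2 higher ones were Donson and Pold4. Of the 8, Dck, Dut, Chaf1a and Recql4 were higher on Ct1 and Ct2, while Pold2, Tipin, Tfdp1 and Pole3 were not. Dut, the enzyme that removes dUTP, was at −1.01 (limma's adjusted p = 0.147), the lowest adjusted p of the list, and at −0.65 without Ct1 and Ct2. Pold2, a subunit of the lagging strand polymerase, was at −0.62 with all controls and at −0.65 without Ct1 and Ct2. It had 9.69 to 9.79 in controls and 8.90 to 9.40 in exposed thyroids.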

How the data were processed

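The members and the gene lists were chosen with earlier results of these data known. For every array the authors deposited spot intensities as read by Feature Extraction 10.7.3.1, and a table of log2 values after their quantile normalization in limma. Here the log2 of the background-subtracted intensity was quantile-normalized over 59305 spots, control spots left out, and averaged per probe. Exposed and control arrays were compared with limma 3.58.1 (lmFit and eBayes, R 4.3.3, no covariate), two-sided, with Benjamini-Hochberg adjustment over 55681 probes and a threshold of 0.05, after a check on simulated arrays. A gene was read by its brightest probe. Values of every array were given for each member with a called probe and for the highest and the lowest member of each role well above background throughout at least 1 group. Other members given in full, and the other pathway genes beyond Ccna2 and Dctd, were chosen after their values were seen. Probes were placed as the array files give them (mm9). Between 60.5% and 77.3% of spots were well above background, no spot was saturated, and precision is limited by the number of arrays. The labels name 4 separate samples a group, which the methods call biological replicates. Alternatives were scaling to the 75th percentile, normexp correction (offset 50), the deposited log2 values, a filter on dim probes (36117 left), the mean of a gene's probes, leaving out Ct1 and Ct2 or each array in turn, and a thymocyte score as covariate. Leaving out outlier-marked spots was added after seeing the data.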

Additional observations from a re-analysis of the deposited data

Results flagged for a closer look

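In 6 of 110 groups of 4 arrays, 1 array lay far from the other arrays of its group, where chance flags about 1 in 20 groups (5.5 of 110). These were Rb1 on S589 (log2 signal 11.70, the others 11.55 to 11.57), Tyms on Ct1 (6.86, the others 7.49 to 7.61), Pola2 on Ct1 (5.04, the others 6.74 to 6.95), Prim2 on S588 (8.27, the others 8.07 to 8.08), Rfc2 on Ct4 (11.02, the others 11.15 to 11.18) and Rfc4 on Ct3 (10.24, the others 10.79 to 10.84).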

How the results depend on the processing

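The count of member probes called (1 in the main comparison) was 2 with scaling to the 75th percentile, 4 with normexp correction, 4 in the deposited values, 3 without dim probes, and 0 without Ct1 and Ct2 or with the thymocyte score as covariate. It ran from 0 to 2 with each array left out, being 0 without Ct2, Ct3, S539, S588 or S589. Calls over all probes changed as well. They numbered 435 in the main comparison, 577 with scaling to the 75th percentile, 857 with normexp correction and 955 in the deposited values. Without dim probes there were 733 (of 36117), without Ct1 and Ct2 89, and with the covariate 203. With each array left out they ran from 100 (without S590) to 481 (without Ct1). The count of members with the groups apart (14) was 14 to 23 with each array left out, the highest without Ct4, 18 without Ct1 and Ct2, and 12 with scaling to the 75th percentile. Groups come apart more readily with fewer arrays, so counts from fewer arrays cannot be set against the 14. Without Ct1 and Ct2, 14.5% of gene names lay below and 13.4% above, against 4.75% and 5.29% in the main comparison. These shares were not counted for the other settings. The median log2 fold change of −0.41 was −0.13 without Ct1 and Ct2 and −0.16 with the covariate, with −0.44 to −0.3 when each array was left out, and no other pathway gene was called under any of these settings. Of the 53 members, 37 kept the sign of their log2 fold change under every alternative. Without Ct1 and Ct2 the sign turned for Ccnd3 (0.106), Ccne1 (0.00925), Mcm5 (0.0286), Mcm7 (0.374), Orc1 (0.319), Rfc5 (0.146) and Rrm2 (0.135), and with the covariate for Ccnd3 (0.0617), Mcm7 (0.316), Rfc5 (0.118) and Tyms (−0.0162). It turned with scaling to the 75th percentile for Cdc45 (0.208), E2f7 (0.155) and Orc2 (0.0587), with normexp correction for Ccne2 (0.0652), Cdk6 (0.0252), E2f7 (0.138) and Orc6 (0.00731), in the deposited values for Ccne2 (0.0558), E2f7 (0.103), Orc6 (0.00814) and Tyms (−0.0045), and by the mean over all probes for Prim2 (−0.154) and Rfc5 (0.00684). With each array left out, the log2 fold changes that turned sign at least once ran over ranges that hold 0, namely Cdc45 (−0.198 to 0.0627), E2f7 (−0.107 to 0.0862), Gins3 (−0.00796 to 0.104), Mcm7 (−0.278 to 0.0917), Orc1 (−1.01 to 0.118), Orc2 (−0.178 to 0.0426) and Tyms (−0.0215 to 0.229). The causes were not tested. No paired analysis was possible because controls and exposed samples share no replicate numbers. Genes near background have fold changes of uncertain size, among them Cdc6 in exposed thyroids and on Ct4, Orc1 and Ccne2.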
